A study of Mus musculus with 36 samples.

Results

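DNase I hypersensitive sites (DHS), stretches of open chromatin that the enzyme DNase I cuts readily, were examined at 8 genes grouped here as Foxo and quiescence regulators: Foxo1, Foxo3, Foxp1, Klf2, Klf3, Klf6, Btg1 and Btg2. Members were all DHS overlapping the body of one of these genes (GENCODE vM21) extended by 10 kb on each side. Of 52788 DHS measured by DNase-seq, 52 met this rule: 27 at Foxp1, 8 at Foxo3, 7 at Foxo1, 3 at Klf2, 2 each at Klf3, Klf6 and Btg1, and 1 at Btg2. The rule picks DHS by position only, but the 8 genes were chosen with earlier results of these data known.

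B3 pre-B cells of the mouse gave the 36 libraries. The Ikaros line had been infected with an MSCV retrovirus that makes Ikaros with an HA tag, joined to ERt2, the part of the estrogen receptor that binds hormone, and makes GFP from the same transcript. The Control line had received the vector with ERt2 and no Ikaros. Both were sampled at 0, 2, 6, 12, 18 and 24 h with 3 replicates (numbered 4, 5 and 6, labelled batches 11, 12 and 13) in each of the 12 groups. 4-hydroxytamoxifen (4-OHT), which lets the fusion protein enter the nucleus, was used at 0.5 µM in both lines. The labels name the drug for all groups including 0 h, whereas by the study's methods the cells for 0 h were left without it and harvested apart from the rest. By the study's methods infected cells were selected by sorting on GFP and grown briefly before freezing, with no step described that isolates single clones. The comparison of lines at each time asks where chromatin accessibility differs once Ikaros is driven into the nucleus. The 0 h difference serves as a reference between the lines. Because the 0 h cells were harvested apart, a background of the lines cannot be told apart there from an effect of collection.

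Values are log2 RPKM, which is per length, so levels of different DHS are on one scale. DHS differ in width and GC content, and trends with these were not removed in the main values. Of 9 B-lineage marker genes, 8 had a promoter DHS, meaning one 1000 bp or less from a transcription start site (TSS), with levels of 4.88 to 5.99. Of 12 T-cell, myeloid, erythroid and muscle marker genes, only Gata3 did, at 4.53. Library medians ran from 3.90 to 4.11. A bulk value cannot tell fewer cells with an open site from less cutting per cell. The authors' noise correction left the 12 group means spanning 6 of 11 possible dimensions, so groups are not independent of each other.

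Foxo1 and Foxo3 are forkhead transcription factors that hold cells in quiescence and, in B-cell precursors, switch on genes such as Rag1, Rag2 and Il7r. Growth factor signalling through PI3K and Akt phosphorylates them and removes them from the nucleus. Foxp1 is a related forkhead factor needed for B-cell development. Klf2, Klf3 and Klf6 are zinc-finger factors that bind CACCC-type elements, and Klf2 maintains lymphocyte quiescence and trafficking. Btg1 and Btg2 are antiproliferative proteins that recruit the CCR4-NOT deadenylase to mRNA. Ikaros, encoded by Ikzf1, is a zinc-finger regulator of lymphocyte development that binds a TGGGAA core.

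The sequences on which the results turn are given on the plus strand of GRCm38 (mm10), in lower case, with matches to TGGGAA or the forkhead heptamer GTAAACA on either strand in capitals. The Foxo1 intronic DHS 75.4 kb from the 5′ end was the only member that differed between the lines at 24 h, and its central 300 bases (chr3:52343577-52343876) hold neither motif.
Foxo1 intron 75.4 kb: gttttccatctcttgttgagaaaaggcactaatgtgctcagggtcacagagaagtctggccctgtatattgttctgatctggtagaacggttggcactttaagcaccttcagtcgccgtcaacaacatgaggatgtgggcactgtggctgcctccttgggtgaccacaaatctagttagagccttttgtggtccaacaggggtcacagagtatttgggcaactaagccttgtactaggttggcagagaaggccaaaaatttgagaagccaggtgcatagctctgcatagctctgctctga
Its neighbour at 63.6 kb holds 3 TGGGAA matches, the most in any member, of which 2 lie in the 300 bases shown (chr3:52331761-52332060).
Foxo1 intron 63.6 kb: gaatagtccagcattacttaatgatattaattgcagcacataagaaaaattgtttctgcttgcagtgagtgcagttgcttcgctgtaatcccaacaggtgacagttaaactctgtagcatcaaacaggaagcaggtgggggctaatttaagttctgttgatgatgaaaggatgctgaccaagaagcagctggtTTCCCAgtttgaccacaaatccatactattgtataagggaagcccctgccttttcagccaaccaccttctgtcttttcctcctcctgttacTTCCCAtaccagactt
The Foxo1 promoter DHS (chr3:52268221-52268387) is shown because its line difference passed the test at 0 h and not at 24 h, and 76.6% of its bases are G or C.
Foxo1 promoter: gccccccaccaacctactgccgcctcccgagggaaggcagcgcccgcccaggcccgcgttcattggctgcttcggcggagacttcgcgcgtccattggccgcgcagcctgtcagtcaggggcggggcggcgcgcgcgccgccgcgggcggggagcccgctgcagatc
The DHS 808 bp upstream of Foxp1 (chr6:99523464-99523594) was the only member whose line difference was called to change with time, and it holds neither motif.
Foxp1 upstream: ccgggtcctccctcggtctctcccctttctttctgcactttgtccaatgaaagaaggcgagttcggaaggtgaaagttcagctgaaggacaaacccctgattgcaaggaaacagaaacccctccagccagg
The Btg1 promoter DHS (300 bases, chr10:96616514-96616813) was the only member with 2 forkhead matches, 445 and 209 bp before the TSS.
Btg1 promoter: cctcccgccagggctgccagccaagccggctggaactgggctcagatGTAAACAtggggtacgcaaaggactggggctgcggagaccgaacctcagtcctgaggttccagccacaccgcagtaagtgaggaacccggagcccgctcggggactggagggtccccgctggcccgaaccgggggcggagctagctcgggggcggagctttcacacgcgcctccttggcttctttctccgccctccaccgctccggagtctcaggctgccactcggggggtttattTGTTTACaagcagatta

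TGGGAA was found in 7 of the 52 members (13.5%, 95% Wilson interval 6.68 to 25.3%), against 26.7% of all DHS. Members were narrower than DHS in general, with a median width of 156 bp against 500 bp, and the share with TGGGAA was 12.4% in all DHS of 120 to 170 bp and 38.7% in those of 500 to 600 bp. In the latter, the width class of the Foxo1 DHS at 63.6 kb, 1.47% held 3 or more TGGGAA matches. GTAAACA was found in 4 members (7.69%, interval 3.03 to 18.2%) and in 4.16% of all DHS: the Btg1 promoter, the Foxo3 DHS 1.2 kb upstream, the Foxp1 DHS 248 bp upstream and the DHS 8.0 kb upstream of Klf2. Among all DHS of 600 to 700 bp, the width class of the Btg1 promoter, 0.237% held 2 or more GTAAACA matches. The Klf motif CCACCC was found in 15 members (28.8%, interval 18.3 to 42.3%) and in 27.4% of all DHS, with 7 matches in the Foxo3 intronic DHS at 56.1 kb. The share with CCACCC was 11.5% in all DHS of 120 to 170 bp and 39.2% in those of 500 to 600 bp. These are matches of letters and not measured binding.

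Of the 52 members, 12 lay within 1000 bp of a TSS of their own gene, 35 in introns, 4 upstream and 1 downstream. All 8 genes had a promoter DHS, although that of Klf3 lay at an internal start 9.4 kb into the gene. Most Foxp1 DHS also overlap Gm20696, a gene annotated across the same locus. Promoter members were more open than intronic members, with a median of 4.62 (range 3.88 to 5.54) against 3.89 (3.03 to 4.95).

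Averaged over the 36 libraries, the lead promoter DHS of each gene, the most open one at its own TSS, ranked from Klf6 to Btg2. Klf6 stood at 5.54 ± 0.28 (SD, n = 36) and Btg1 at 5.47 ± 0.26, a gap smaller than either SD. Klf2 followed at 5.20 ± 0.25 and Foxo3 at 5.07 ± 0.28. Foxp1 at 4.62 ± 0.47, Foxo1 at 4.62 ± 0.39 and Klf3 at 4.55 ± 0.30 lay closer together than any of their SDs. Btg2, at 3.88 ± 0.26, was the least open and lay at the 45.6th percentile of all DHS, where Klf6 lay at the 96.8th. Only the steps from Btg1 to Klf2 and from Klf3 to Btg2 were larger than the SD of both neighbours. This SD spans both lines and all times and is not the error of a mean, and the order was not tested. The lead DHS also differ in width, from 130 bp at Foxp1 to 988 bp at Foxo3.

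**Figure D1:**
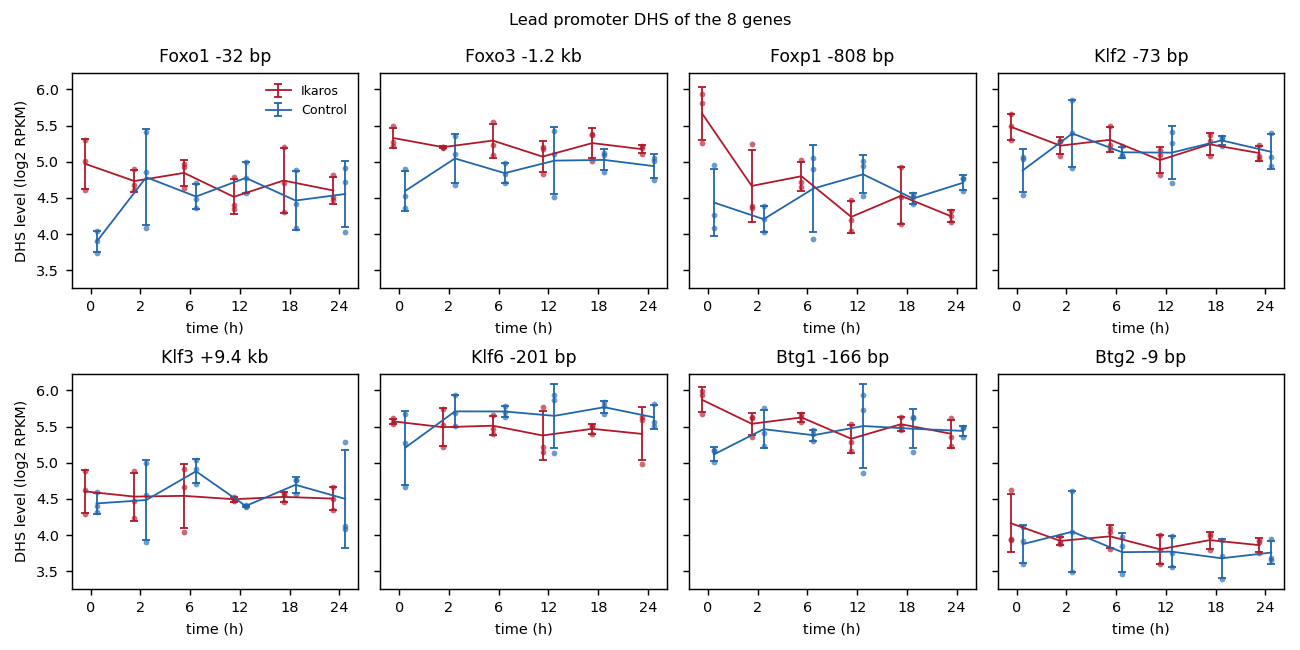
Level (log2 RPKM) of the lead promoter DHS of each gene against time (h) in the Ikaros and Control lines, with points for the 3 libraries and lines for group means ± SD. Foxo1, Foxo3, Foxp1, Klf2 and Btg1 are higher in Ikaros than in Control at 0 h, and from 2 h on no lead promoter passes the test.

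At 24 h, 1 of the 52 members differed between the lines by limma with Benjamini-Hochberg adjustment over all DHS (threshold 0.05), against 1.33% of all DHS. This was the Foxo1 intronic DHS at 75.4 kb (chr3:52343471-52343983). Its levels in replicates 4, 5 and 6 were 4.20, 4.35 and 4.25 in Ikaros and 2.77, 3.37 and 3.46 in Control. Every Ikaros library lay above every Control library. The difference was 1.07 on the log2 scale (SE 0.25, 95% interval 0.56 to 1.58), a 2.10-fold higher level in Ikaros, with an adjusted p of 0.0287 (limma). Within batches 11, 12 and 13 it was 1.43, 0.98 and 0.79.

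The same DHS was higher in Ikaros at every time measured, with differences of 0.31, 0.51, 0.74, 0.91, 0.77 and 1.07 at the 6 times in order. At 0 h the libraries overlapped, with 3.69, 3.26 and 3.55 in Ikaros and 3.44, 3.21 and 2.90 in Control, and from 2 h on they did not. In the order of the 12 group means the 5 later Ikaros groups came before all others, from 4.27 at 24 h to 3.95 at 2 h, followed by Ikaros at 0 h at 3.50. The step between Ikaros at 2 h and at 0 h was the only one in that order larger than the SD of both neighbours. The growth of the difference from 0 h to 24 h was 0.75 (SE 0.36, adjusted p = 0.182, limma), and the change over time in Ikaros had an adjusted p of 0.465. A change with time was therefore not called at this DHS.

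Its neighbour at 63.6 kb (chr3:52331634-52332218) was also higher in Ikaros, without passing the test. From 0 h to 24 h the mean of this neighbour went from 3.77 to 3.89 in Ikaros and from 3.51 to 3.27 in Control. Its levels at 24 h were 4.08, 3.74 and 3.85 in Ikaros and 3.25, 3.14 and 3.43 in Control, which did not overlap. The difference was 0.62 (SE 0.25, adjusted p = 0.220, limma), and it lay between 0.51 and 0.77 from 2 h on. Over the 36 libraries the levels of the 2 intronic DHS had a Pearson r of 0.50, the highest of the 21 pairs of Foxo1 DHS, whereas that of the 75.4 kb DHS with the Foxo1 promoter was 0.32. The libraries and their depth are shared by both DHS, so these values are descriptions.

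Leaving out a single library ended the 24 h call at the 75.4 kb DHS in 5 of 6 cases: Ikaros replicate 4, 5 or 6 (difference 1.10, 1.03 and 1.08, adjusted p = 0.0975, 0.119 and 0.0745) and Control replicate 4 or 5 (0.85 and 1.15, adjusted p = 0.157 and 0.0534). With trends against level, width and GC content removed it was 0.94 (adjusted p = 0.0615, limma).

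**Figure D2:**
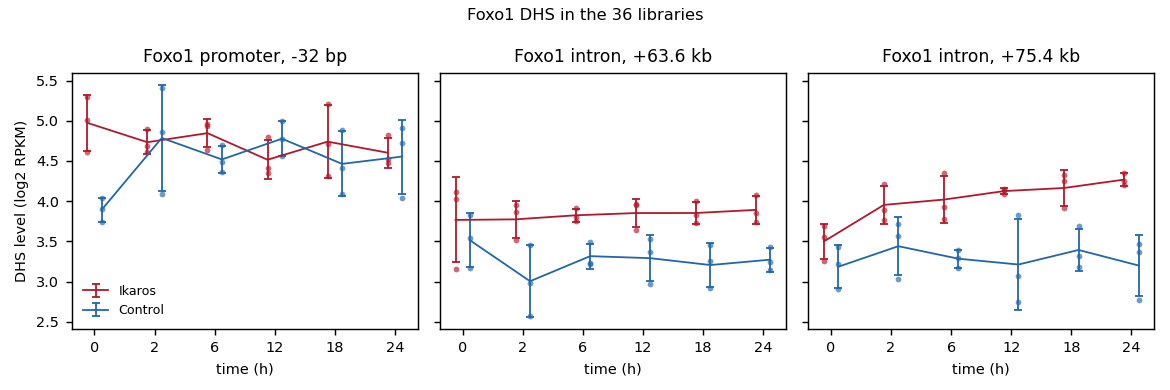
Level (log2 RPKM) of the Foxo1 promoter DHS and the intronic DHS at 63.6 and 75.4 kb against time (h), with points for libraries and lines for group means ± SD (n = 3). At the promoter the lines differ at 0 h, whereas at 75.4 kb they do not overlap from 2 h to 24 h.

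At 0 h, 9 of the 52 members (17.3%) differed between the lines, 8 higher and 1 lower in Ikaros, against 12.9% of all DHS (7.81% higher, 5.04% lower). Of the 12 promoter members 6 were called, all higher in Ikaros, with a median difference of 0.73. Among all promoter DHS 24.2% were called and the median was 0.30, so promoters in general had higher values in Ikaros at 0 h. With trends against level, width and GC removed these were 3.69% and 0.05. At 2 h, in the main fit, 0.0649% of all promoter DHS were called and the median was -0.02. The cause of the 0 h shift was not tested.

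The Foxo1 promoter stood at 5.30, 4.61 and 5.01 in Ikaros and at 4.04, 3.90 and 3.74 in Control, a difference of 1.08 (SE 0.27, adjusted p = 0.00849, limma). Foxo3 had 2 promoter DHS that both differed, by 1.14 (SE 0.29, adjusted p = 0.00967) near the TSS and by 0.73 (SE 0.19, adjusted p = 0.0118) at 1.2 kb upstream. The DHS near its TSS stood at 5.47, 5.75 and 4.97 in Ikaros and at 4.42, 4.24 and 4.14 in Control. At these promoters every Ikaros library exceeded every Control library. The Btg1 promoter stood at 5.99, 5.68 and 5.94 in Ikaros and at 5.18, 5.16 and 5.00 in Control (difference 0.76, SE 0.19, adjusted p = 0.00876, limma). The Klf2 promoter differed by 0.61 (SE 0.19, adjusted p = 0.0337), and this difference turned to -0.16 once the trends with level, width and GC were removed. Klf2 libraries also did not overlap, with 5.30, 5.65 and 5.50 in Ikaros and 5.04, 5.06 and 4.54 in Control.

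The largest 0 h difference was at the DHS 808 bp upstream of Foxp1. It stood at 5.94, 5.82 and 5.25 in Ikaros and at 4.27, 4.09 and 4.96 in Control, with no overlap and a difference of 1.23 (SE 0.26, adjusted p = 0.00313, limma). The promoters of Klf3 (0.17), Klf6 (0.36) and Btg2 (0.29) had overlapping libraries at 0 h and did not pass the test (adjusted p = 0.715, 0.269 and 0.438, limma).

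Outside the promoters of their own genes, 3 of 40 members (7.5%) were called at 0 h, against 8.17% of all DHS outside promoters. The latter class leaves out DHS at the promoter of any gene, so the classes are not alike. The DHS 5.7 kb upstream of Foxo1, the most open Foxo1 DHS, was the only member called lower in Ikaros. It stood at 3.79, 4.42 and 4.24 in Ikaros and at 5.26, 4.42 and 5.70 in Control, a difference of -0.98 (SE 0.29, adjusted p = 0.0268, limma) that was -0.0094 within batch 12. The DHS 1.8 kb into Foxo1, which lies at the promoter of the antisense gene Gm20402, was higher by 0.89 (SE 0.29, adjusted p = 0.0428). The Foxp1 DHS at 133.8 kb, at the promoter of Gm20705, was higher by 0.54 (SE 0.18, adjusted p = 0.0454). DNase signal carries no strand, so neither DHS can be assigned to one of the overlapping genes.

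Most 0 h calls changed with 1 library or with the removal of trends. Without Control 0 h replicate 6, 1 of the 9 members was still called, the Foxp1 upstream DHS, and the Foxo1 promoter difference was 1.01 (adjusted p = 0.0503, limma). Calls fell across the series in that fit, to 4.39% of all DHS and 9.11% of all promoter DHS. With trends against level, width and GC removed, again 1 was called, the same Foxp1 DHS at 1.42 (adjusted p = 0.00536, limma). Trend removal left 2.95% of all DHS and 3.69% of all promoter DHS called. The median of the 12 promoter members fell to 0.11 and that of all promoter DHS to 0.05. The Foxo1, Foxo3 and Btg1 promoter differences were then 0.10, 0.034 to 0.30 and 0.11. Other single 0 h libraries also ended calls. Without Ikaros replicate 5 or 6 the Klf2 promoter was at 0.52 and 0.60 (adjusted p = 0.112 and 0.0680, limma). Without Ikaros replicate 4 or Control replicate 4 the DHS 5.7 kb upstream of Foxo1 was at -0.80 and -0.91 (adjusted p = 0.118 and 0.0821). The Foxo1 DHS at 1.8 kb was not called without Ikaros replicate 4 or 5 or Control replicate 5 (0.91, 0.66 and 0.83), nor was the Foxp1 DHS at 133.8 kb without Ikaros replicate 4, 5 or 6 (0.50, 0.54 and 0.59).

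**Figure D3:**
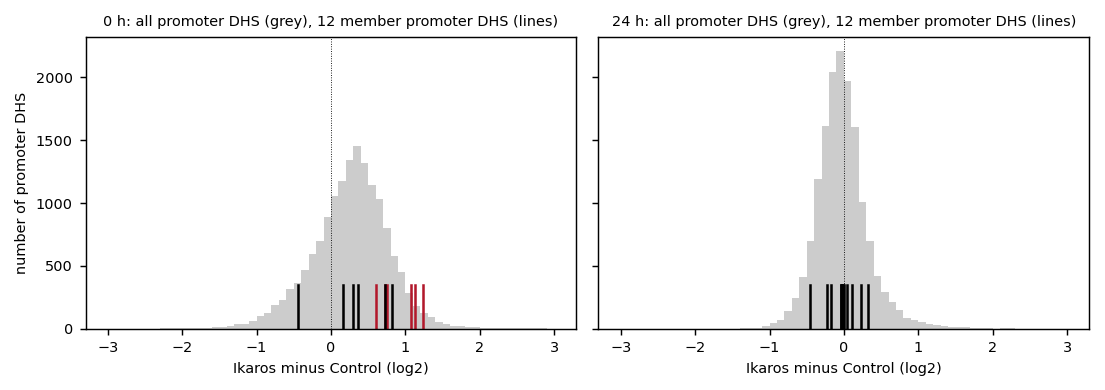
Number of promoter DHS by Ikaros minus Control difference (log2) at 0 h and 24 h, for all 15403 promoter DHS (grey bars) and the 12 member promoter DHS (lines, red where called). At 0 h the grey distribution centres at 0.30 and 11 of the 12 lines lie above 0, and at 24 h both centre near 0.

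No member was called at 2, 6, 12 or 18 h by limma, where 0.195%, 0.578%, 1.31% and 0.699% of all DHS were. At an unadjusted p under 0.05 there were 6, 7, 6 and 7 members, or 11.5%, 13.5%, 11.5% and 13.5%, near the 10.0%, 13.8%, 15.8% and 13.1% of all DHS. The largest promoter difference at these times was at the Klf6 DHS 3.3 kb into the gene at 2 h. It stood at 4.49, 4.49 and 4.54 in Ikaros and at 3.76, 3.67 and 3.50 in Control, with no overlap and a difference of 0.87 (SE 0.26, adjusted p = 0.154, limma). At the other 5 times its libraries overlapped, with differences of -0.44 to 0.14. At 24 h no promoter member reached even an unadjusted p under 0.05, and their median difference was -0.02, beside -0.05 over all promoter DHS. The Foxo1 promoter stood at 4.82, 4.47 and 4.52 in Ikaros and 4.72, 4.91 and 4.04 in Control at 24 h, and the libraries overlapped. The Foxo3 promoter DHS kept positive differences at the 5 later times, of 0.16 to 0.51 near the TSS and 0.06 to 0.45 at 1.2 kb upstream, none of which passed the test.

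The 0 h cells were harvested apart, so changes from 0 h cannot be told apart from an effect of collection. The difference between the lines changed from 0 h to 24 h at 1 of 52 members, against 6.26% of all DHS. This was the DHS 808 bp upstream of Foxp1, where it fell by 1.69 on the log2 scale (SE 0.37, adjusted p = 0.0123, limma). Without replicate 4 or 5 in every group the change was -1.57 and -1.38 (adjusted p = 0.0867 and 0.0958). At 24 h that DHS stood at 4.33, 4.17 and 4.25 in Ikaros and at 4.59, 4.76 and 4.77 in Control. Ikaros was thus the higher line in every library at 0 h and the lower at 24 h, although the 24 h difference of -0.46 (SE 0.26) had an adjusted p of 0.432. The interaction of line and time was called at this member only (adjusted p = 0.0433, limma; 1.1% of all DHS), and lost the call with the replicate block (adjusted p = 0.0619) and without any one replicate (0.166 to 0.359). Single libraries of either line also ended it, among them Ikaros 0 h replicate 4 (F = 5.06, adjusted p = 0.114) and Control 0 h replicate 4 (F = 5.18, adjusted p = 0.103). Change over time in the Ikaros line was also called at this member only (adjusted p = 0.0112, limma; 2.29% of all DHS), and no longer without Ikaros 0 h replicate 4 or 5 (adjusted p = 0.112 and 0.0744). In the order of its group means, Ikaros at 0 h (5.67) stood 0.84 above the next group, and no other step exceeded the SD of both neighbours.

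No member changed over time in Control (0.148% of all DHS; at an unadjusted p under 0.05, 15.4% of members and 12.6% of all DHS) or in its line difference from 2 h to 24 h (0% of all DHS; at an unadjusted p under 0.05, 3.85% of members and 2.85% of all DHS). At the Foxp1 DHS the line differences at the 6 times in order were 1.23, 0.46, 0.17, -0.59, 0.04 and -0.46, and the change from 2 h to 24 h was -0.92 (SE 0.37, unadjusted p = 0.0188, limma), in a comparison where no DHS passed the adjusted test.

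Foxp1 held the most members, spread over 597 kb. Of its 27 DHS, 2 (7.41%) were called at 0 h, against 12.9% of all DHS. At later times 0 were called, where 0.195% to 1.33% of all DHS were. At 24 h 3 of the 27 (11.1%) had an unadjusted p under 0.05, against 14.7% of all DHS. Over the 5 later times the estimates were below 0 throughout at 6 of the 27 and above 0 throughout at 4. The same count was not made over all DHS and the groups are not independent, so whether it is unusual was not tested. Of the 6, 3 lie close together between 246.9 and 248.3 kb and are described after their values were seen. The outermost, at 248.3 kb (chr6:99274359-99274494), stood at 4.31, 4.63 and 4.11 in Ikaros and at 4.87, 5.55 and 5.44 in Control at 2 h. Its difference was -0.94 at 2 h (SE 0.23, adjusted p = 0.0785, limma) and -0.75 at 24 h (adjusted p = 0.0958), against 0.10 at 0 h. At 24 h its libraries overlapped, with 3.61, 4.21 and 4.26 in Ikaros and 5.21, 4.92 and 4.20 in Control. The largest Foxp1 difference at 24 h was at the DHS 550.7 kb into the gene, 1.12 (SE 0.51, adjusted p = 0.296), where a low level of 3.03 goes with a wide error. It stood at 3.31, 3.85 and 3.37 in Ikaros and at 2.31, 2.64 and 2.23 in Control.

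**Figure D4:**
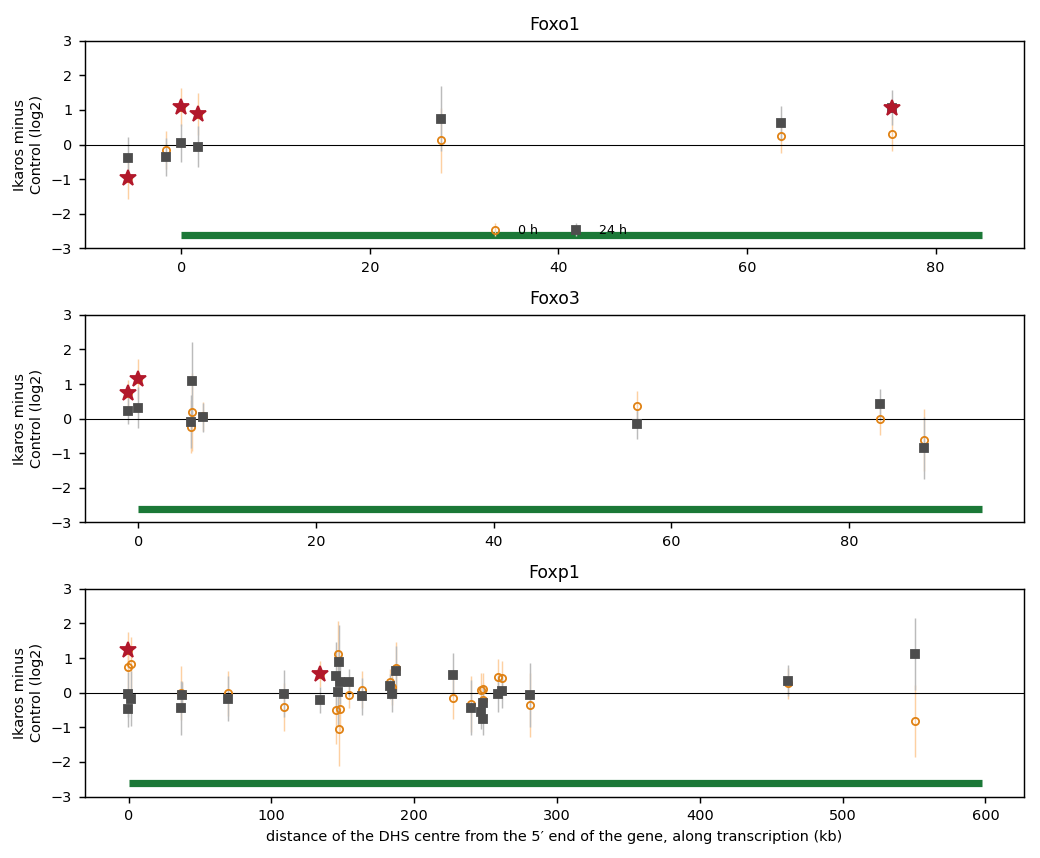
Ikaros minus Control difference (log2, bars 95% intervals) of each DHS at Foxo1, Foxo3 and Foxp1 against its distance from the 5′ end (kb), at 0 h (open circles) and 24 h (squares), with called values as red stars and the gene body as a green bar. Called values at 0 h sit mostly near the 5′ end, and the only one at 24 h lies 75.4 kb into Foxo1.

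The remaining genes had no difference at 24 h that passed the test. At Foxo3, the largest was at a 98 bp wide intronic DHS at 6.0 kb, which stood at 4.92, 3.68 and 4.19 in Ikaros and at 3.61, 3.02 and 2.90 in Control (difference 1.08, SE 0.55, adjusted p = 0.366, limma). Its libraries did not overlap, but the adjoining DHS at 5.9 kb differed by -0.09. At Btg1 the largest was -0.43 at 5.9 kb, just past the gene's 3′ end. At Klf2 it was -0.27 at 8.0 kb upstream, at Klf6 -0.23 at the promoter, at Klf3 0.13 at 10.3 kb and at Btg2 0.10 at the promoter, each with overlapping libraries. The directions for Klf6, Klf3 and Btg2 each turned under an alternative, so none is given as a direction.

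**Figure D5:**
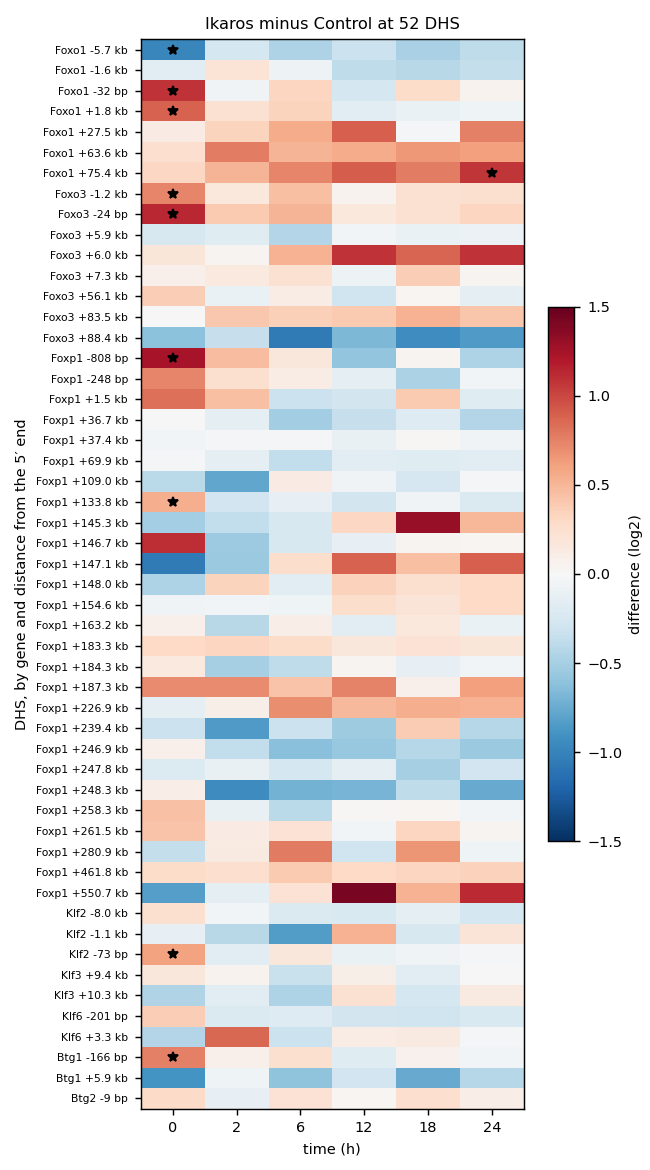
Ikaros minus Control difference (log2, colour) at each of the 52 DHS (rows, by gene and distance from the 5′ end) at 6 times (columns, h), with stars at the 10 values that passed the test. Of these 9 are at 0 h and 1 is at 24 h, the Foxo1 DHS at 75.4 kb.

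Promoter DHS of other genes tracked the lead promoters across the 36 libraries. The closest to the Foxo3 promoter was the one shared by Bora and Mzt1 (Pearson r = 0.93). The Klf6 promoter was most like those of Lyrm7 (0.91) and Abhd17b (0.91), and the Btg1 promoter those of Rbbp4 and Zbtb8os (0.89) and of St13 and Xpnpep3 (0.87). For Klf2 they were Pias4 (0.89) and Dusp5 (0.87), and for Foxp1 Ube2a (0.83) and Erbin (0.81). The Foxo1 promoter was less closely followed, by Smarcc2 (0.78) and Galnt11 (0.77), as was that of Btg2, by Scaf8 (0.79) and Nipsnap3b (0.78). Klf3 had the least like neighbours, Elk1 (0.62) and Thbd (0.56). These are the highest of 15403 promoter DHS, and the points share libraries and depth.

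Among 42 other genes of the pathway (PI3K and Akt signalling, Foxo targets, and Klf, Btg and Tob relatives), 36 had a promoter DHS, 59 in all. At 0 h 18 of the 59 (30.5%) were called, all higher in Ikaros, near the 24.2% of all promoter DHS. Among those with the smallest adjusted p-values were Klf10, a Klf relative (1.19, SE 0.19, adjusted p = 0.000382, limma), and the wider of the pair of Btg3 DHS (1.24, SE 0.25, adjusted p = 0.00235). Others were Rb1, the retinoblastoma protein (1.07, adjusted p = 0.00259, limma), Klf13 (0.96, adjusted p = 0.00272) and Sesn1, a Foxo target (0.79, adjusted p = 0.00295). Further promoter DHS of these genes did not all go the same way. The narrower Btg3 DHS was at -1.28 (adjusted p = 0.128, limma). Rb1 had others at 0.68, -0.06 and 0.10, and Klf13 another at -0.13, none of them called. A second Sesn1 DHS was called at 0.63 (adjusted p = 0.00509, limma). With trends against level, width and GC removed, 3 of the 59 (5.08%) were called, near the 3.69% of all promoter DHS in the same fit. Klf10 was then at 0.044, while the wider Btg3 DHS turned to -0.096 and the called Klf13 DHS to -0.0027. By group, 5 of 21 promoter DHS of upstream regulators, 6 of 15 of Foxo targets, 3 of 6 of Btg and Tob relatives, 2 of 6 of Klf relatives and 2 of 9 of other quiescence genes were called at 0 h.

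Of the 59 listed promoter DHS, 1 (1.69%) was called at 12 h and again at 24 h, against 0.850% and 0.889% of all promoter DHS. The change of the line difference from 0 h to 24 h was called at 10 (16.9%), all negative, against 9.97% of all promoter DHS. The interaction was called at 3 (5.08%), against 1.92%. In line differences after 0 h only Pik3r1, which encodes the p85 regulatory subunit of PI3K, was called in the list, a gene named after its values were seen. A DHS at an annotated start inside the gene (chr13:101694103-101694238) was lower in Ikaros by 1.20 at 12 h (SE 0.25, adjusted p = 0.0174) and 1.24 at 24 h (SE 0.25, adjusted p = 0.0126, limma). At 24 h it stood at 4.28, 4.33 and 4.30 in Ikaros and at 5.81, 5.26 and 5.56 in Control, with no overlap. At 0 h it stood at 5.55, 5.67 and 5.84 in Ikaros and at 5.54, 5.10 and 4.80 in Control. The difference thus changed by -1.79 from 0 h to 24 h (SE 0.36, adjusted p = 0.00880, limma). That change cannot be told apart from an effect of the separate 0 h harvest. The DHS at the gene's upstream start differed by -0.06 at 24 h. The 24 h value was -1.11 with trends removed (adjusted p = 0.0160), and the call ended without Ikaros 24 h replicate 4 or 5 (-1.23 and -1.25, adjusted p = 0.0677 and 0.0529) or Control 24 h replicate 4 (-1.11, adjusted p = 0.0745). The 12 h call ended without any 12 h Ikaros library (-1.24 to -1.15) or Control 12 h replicate 5 (-1.03).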

How the data were processed

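The table of DHS in the 36 libraries was used as deposited. Per the study's methods, the authors mapped reads to mm10 (Bowtie2), took HOMER peaks of both the narrow and broad kind per replicate, joined these into consensus DHS, counted reads with bedtools and scaled the counts by RPKM and TMM. They then removed noise with ARSyN, which can pull group means together. As deposited, values are log2 RPKM. The base was settled from the sums over DHS, 369487 to 432755 RPM in base 2, since base e would exceed a whole library. Depth per library was not given, so no counting interval is printed and precision rests on the 3 replicates per group.

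The members and gene lists were chosen with earlier results of these data known. Named were each gene's lead promoter DHS, its most open DHS, members past the threshold in a line difference, interaction or change from 0 h to 24 h, the largest 24 h difference of each gene, and up to 6 pathway promoter DHS by smallest adjusted p. Some items that these rules name are not reported here. Groups came from the labels. limma 3.58.1 (R 4.3.3, eBayes with trend) was fitted to 12 group means over all libraries, two-sided, with Benjamini-Hochberg adjustment over 52788 DHS and a threshold of 0.05, and was tested on simulated data. Refits of the pathway list and Pik3r1 under the alternatives below were chosen after seeing the data. Python 3.11.15 made the tables. Distances run from a gene's 5′ end to the DHS centre. The sources used here do not give the base from which starts are counted, so coordinates may be off by 1 bp. Sequences and motifs were read from GRCm38.p6. Replicate numbers pair the samples because the labels give each number a shared batch. Deviations of same-numbered libraries correlated at -0.18 to 0.18 (median -0.02 over 18 pairs). The replicate block, quantile normalization, a filter on low DHS, a spread per group, trend removal, fits on the compared groups alone, leaving out replicates or single libraries, unextended gene bodies and a central motif search were alternatives.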

Additional observations from a re-analysis of the deposited data

Results flagged for a closer look

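The DHS 808 bp upstream of Foxp1 stood out because its line difference at 24 h differed from that at 0 h by a direct test, with a change of -1.69 (SE 0.37, adjusted p = 0.0123, limma). The F statistic for its interaction of line and time was 6.43 (adjusted p = 0.0433, limma). Within batches 11, 12 and 13 the 0 h difference was 1.67, 1.73 and 0.30, and the 24 h difference was -0.27, -0.59 and -0.52.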

How the results depend on the processing

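The number of members called at 0 h, 9 in the report, was 1 with a spread per group, 1 with trends against level, width and GC removed, 0 in a fit of the compared groups alone and 1 to 10 when replicates or libraries were left out. At 24 h, 1 in the report, these fits gave 2, 0 and 0, and 0 to 2 with libraries left out. Of all DHS, 2.95% were called at 0 h and 0.595% at 24 h with trends removed. At 12 h a spread per group gave 1, and leaving out libraries gave 0 to 1 at 2 h and at 12 h. For the change from 0 h to 24 h the compared groups alone gave 0 and leaving out libraries 0 to 2. The interaction call at 1 member became 0 with quantile normalization, the replicate block, a spread per group or trends removed, and 0 to 2 with libraries left out. Change over time in Ikaros gave 4 in the fit of its own groups and 0 to 1 with libraries left out, and change over time in Control 0 to 1. The replicate block, which pairs batches, changed no other call. Signs turned at the Klf2 promoter at 0 h (-0.16, trends removed) and, at 24 h, at the Btg2 promoter (-0.037, quantile normalization), the Klf3 DHS at 10.3 kb (-0.065 to 0.31 without 1 replicate, negative without replicate 4) and the Klf6 promoter (-0.41 to 0.076, positive without replicate 6). The cause was not tested. Gene bodies with no extension held 6 of the 0 h calls and the 24 h call. In the central 150 bp TGGGAA was found in 7.69% of members and 13.1% of all DHS. CCACCC was found there in 21.2% of members (interval 12.2 to 34.0%) and 13.6% of all DHS, and GTAAACA in 3.85% and 1.65%.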
